A study of Caenorhabditis elegans with 2 samples.

Results

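The regions described here are candidate regions for the transcription factor NHR-28 on the X chromosome of Caenorhabditis elegans that lie outside promoters. They were chosen from the authors' list of candidate regions called on both replicates pooled. The list was ranked by the authors' pooled signal and the first 5000 of 20876 regions were kept. Of these, 655 lay on X with a summit that fell in no promoter window, a window that starts 1000 bp before the transcription start site (TSS) of a protein-coding gene and ends 500 bp after it. The other 4345 regions were 323 on X in promoter windows, 2406 on autosomes outside them and 1616 on autosomes inside them. Each of the 655 regions is called a member here and is named by its order of pooled signal, from X1 to X655. The pooled signal and the position chose the members, so both are given as descriptions.

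The study was a chromatin immunoprecipitation sequencing experiment (ChIP-seq) with 1 group of 2 biological replicates. Both replicates were whole larvae at stage L3 of strain OP317, in which the sexes were mixed. The strain carries the mutation unc-119(ed3) and the transgene wgIs317, from which NHR-28 fused to enhanced green fluorescent protein (eGFP) is made. The labels name nhr-28 as the target of the antibody and do not state what drives the transgene or what is left of the worm's own nhr-28 product. With no second condition there is no comparison over samples, and a control library was not analysed here. Both replicates came from the same strain, and whether the spread between them is biological or technical was not tested.

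NHR-28 belongs to the nuclear hormone receptors, zinc finger transcription factors that bind short DNA elements and form an unusually large family in nematodes. The X chromosome of C. elegans is also the target of dosage compensation. In hermaphrodites, which have a pair of X chromosomes, a condensin-like dosage compensation complex is loaded on X at recruitment sites (rex sites) and spreads from there, and X-linked expression is lowered to match that of males, which have a single X. Recruitment sites are known for a short sequence motif with the core CGCAGGGAG, often present in several copies. A longer known form of the motif has the letters TCG before this core and is called the 12-letter motif below.

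The sequences around the summits of the strongest members carried this motif. The next sequences show 100 bases from members X2, X3, X5, X6, X8, X9, X11, X12 and X14, with the best 12-letter site in capitals. They are shown because they are the 9 of the 14 strongest members that hold a site with at most 1 mismatch. Sequence and coordinates are from the RefSeq sequence of WBcel235, which is the assembly of build ce11.
X2, chrX:11094079-11094178, reverse strand: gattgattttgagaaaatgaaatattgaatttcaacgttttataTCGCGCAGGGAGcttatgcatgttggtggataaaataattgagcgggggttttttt
X3, chrX:2997077-2997176, reverse strand: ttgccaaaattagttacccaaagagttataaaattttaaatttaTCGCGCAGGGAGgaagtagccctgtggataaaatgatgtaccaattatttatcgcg
X5, chrX:806613-806712, reverse strand: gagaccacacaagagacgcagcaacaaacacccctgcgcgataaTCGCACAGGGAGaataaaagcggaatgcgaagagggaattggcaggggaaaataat
X6, chrX:8036389-8036488, forward strand: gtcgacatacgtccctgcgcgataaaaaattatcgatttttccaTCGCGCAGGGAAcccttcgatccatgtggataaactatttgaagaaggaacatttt
X8, chrX:6296530-6296629, forward strand: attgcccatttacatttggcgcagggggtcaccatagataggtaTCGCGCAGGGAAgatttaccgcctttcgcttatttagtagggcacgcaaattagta
X9, chrX:16682126-16682225, reverse strand: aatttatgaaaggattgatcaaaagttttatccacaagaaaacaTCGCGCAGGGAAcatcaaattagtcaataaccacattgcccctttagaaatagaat
X11, chrX:16056604-16056703, reverse strand: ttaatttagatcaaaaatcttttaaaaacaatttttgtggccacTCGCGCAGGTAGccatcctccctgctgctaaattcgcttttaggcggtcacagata
X12, chrX:4209246-4209345, forward strand: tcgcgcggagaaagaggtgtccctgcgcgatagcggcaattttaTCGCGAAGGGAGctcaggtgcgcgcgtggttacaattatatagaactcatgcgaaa
X14, chrX:5429544-5429643, forward strand: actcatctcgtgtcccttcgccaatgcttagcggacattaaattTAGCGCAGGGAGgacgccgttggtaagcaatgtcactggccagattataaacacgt

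X2 and X3 matched all 12 letters. The other sites differed from the motif at 1 position, counted from 1 at its 5′ end with the letter of the motif first. X5 had the change G5A, X6, X8 and X9 each had G12A, X11 had G10T, X12 had C6A and X14 had C2A. X6 and X12 hold a further site in the opposite orientation within the same 100 bases, and X3 had 3 sites of at most 1 mismatch with their centre in the region, of which the third runs 3 bases past its end. Of the 11 members with such a site, 4 had 2 or more. X7 and X10, also among the 14 strongest, held the motif only at 2 mismatches, with C6G and G12C in X7 and with C6A and G12T in X10.

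The strongest member and the fourth did not hold the 12-letter motif with up to 2 mismatches, and their sequences are shown for contrast. In X1 the capitals mark the best match to the core, which has 1 mismatch. The best 12-letter match of X1 has 3 mismatches and that of X4 has 5, and no base of X4 is in capitals. These matches cover the 340 bp region only. Past the end of X4, a site with 1 mismatch lies at chrX:12363627-12363638. That site is in a region of the replicate 1 list and in no pooled region, so the X4 locus is not free of the motif. X13, also among the 14 strongest, has 5 mismatches at its best match.
X1, chrX:9465838-9465937, forward strand: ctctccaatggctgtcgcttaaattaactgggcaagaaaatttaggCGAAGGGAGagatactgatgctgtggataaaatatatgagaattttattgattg
X4, chrX:12363175-12363274, forward strand: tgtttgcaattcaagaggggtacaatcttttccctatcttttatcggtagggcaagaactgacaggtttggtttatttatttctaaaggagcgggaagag

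The 12-letter motif with up to 2 mismatches was held by 11 of the 50 strongest members (22.0%, exact 95% interval 11.5 to 36) and by 6 of the other 605 (0.992%). Intervals of this kind cover the counting of regions only. Together these are 17 of 655 members (2.6%, interval 1.52 to 4.12), against 6 of 323 X regions in promoters (1.86%, 0.685 to 4.0), 8 of 2406 autosomal regions outside promoters (0.333%, 0.144 to 0.654) and 11 of 1616 autosomal regions in promoters (0.681%, 0.34 to 1.21). Over all of the first 5000 regions the share was 0.84%. These other kinds were taken whole. Among the 50 strongest regions of each, the motif was held by 2 X regions in promoters (4.0%) and 3 autosomal regions in promoters (6.0%). It was held by 0 of the 50 strongest autosomal regions outside promoters. The longer form and the number of mismatches were chosen after the core and the frequent 8-letter words of these members had been seen, so these counts are a description.

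All 11 strong holders lay among the 14 strongest members, namely X2, X3, X5 to X12 and X14. Number 14 was read from the result. In the pooled list these 14 members stood among the 24 strongest regions, with signals from 69.27 to 169.9. The other 10 of the 24 were 1 X region in a promoter, 2 autosomal regions outside promoters and 7 autosomal regions in promoters, and none of these 10 held the motif. At pooled ranks 25 to 162, the weakest rank of the final set, 0 of 14 members held it (an exact upper limit of 23.2%), against 2 of 6 X regions in promoters, 0 of 42 autosomal regions outside promoters and 5 of 76 autosomal regions in promoters. The motif in members was thus concentrated at the very top of the signal order.

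**Figure D1:**
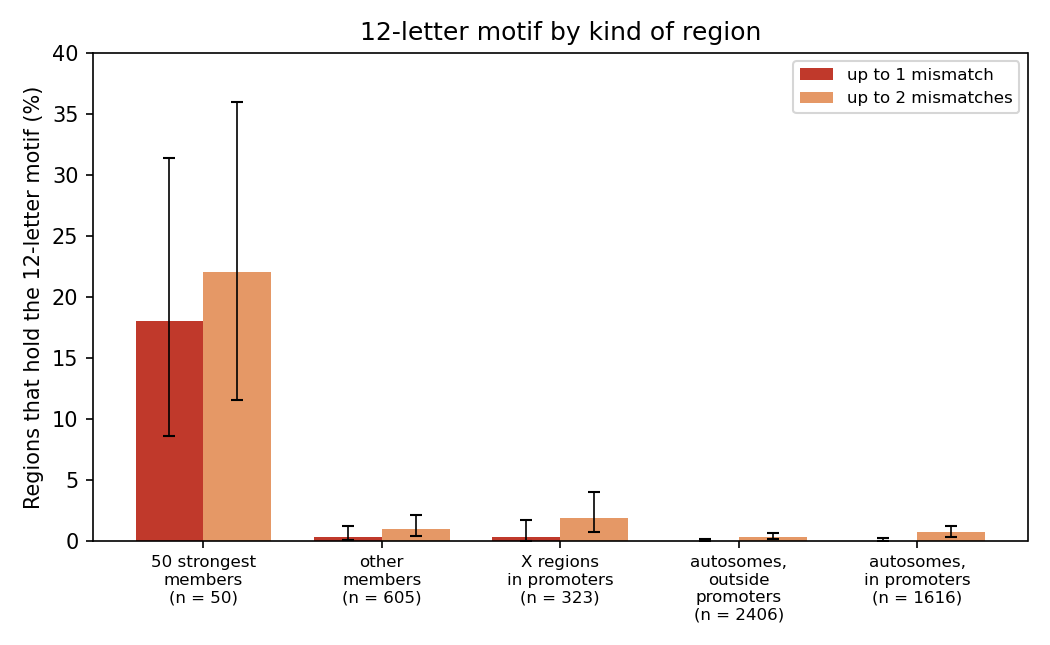
Share of regions that hold the 12-letter motif, in percent, by kind of region, with up to 1 mismatch (dark bars) and up to 2 mismatches (light bars), on both strands of the whole 340 bp region. Error bars are exact 95% intervals for the counting of regions. The 50 strongest members stand at 22.0% with up to 2 mismatches. Each of the other kinds, shown whole and not by its strongest regions, is below 2%.

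At a stricter limit of 1 mismatch, the motif was held by 11 of 655 members (1.68%), against 1 of 323 X regions in promoters (0.31%), 0 of 2406 autosomal regions outside promoters and 0 of 1616 autosomal regions in promoters. The counts of 0 allow shares of up to 0.153% and 0.228% (exact upper limits). The core alone, with no letters before it, was first searched with no mismatch allowed. It was found in 5 members (0.763%, interval 0.248 to 1.77), against 1 X region in promoters, 1 autosomal region outside promoters (0.0416%) and 1 autosomal region in promoters (0.0619%), with a share of 0.16% over the first 5000. Of these 5 members, 4 were among the 50 strongest. With no mismatch, the 12-letter motif was in 2 members. With 1 mismatch allowed, the core was in 26 members (3.97%, interval 2.61 to 5.76) and in 2.46% of the first 5000. The shares were 2.79% of X regions in promoters (1.28 to 5.22) and 2.97% of autosomal regions in promoters (2.2 to 3.92), whose intervals overlap that of the members. It was 1.66% of autosomal regions outside promoters (1.19 to 2.26).

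The sites lay close to the summit, which is the middle of each deposited region. Over the 17 members with the motif, the centre of the best site was a median of 35 bp from the summit, with a range of 0 to 82 bp, and 11 sites lay within 50 bp. In the 638 members without it, the best match to the same 12 letters was a median of 83 bp away. In X12 the site was centred on the summit itself, and in X3 it lay 8 bp away.

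**Figure D2:**
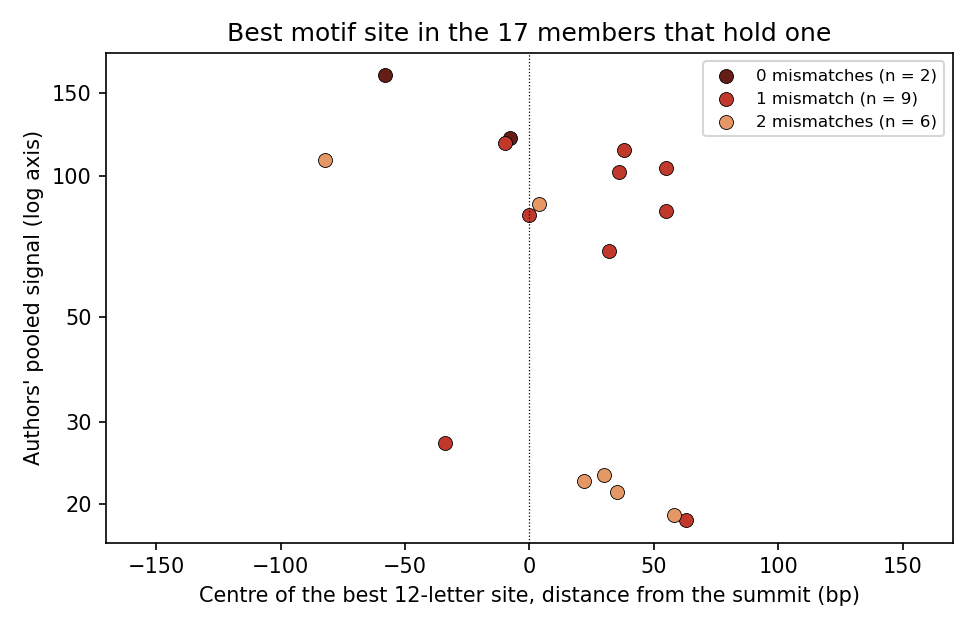
Pooled signal of the 17 members that hold the 12-letter motif (vertical log axis, authors' signal) against the distance of the centre of their best site from the summit (horizontal axis, bp). Colours give the number of mismatches. All sites lie within 82 bp of the summit, and 11 members lie above a signal of 69 and 6 below 28.

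The 6 weaker holders were X54, X94, X106, X148, X259 and X302, with signals from 27.01 down to 18.49 and pooled ranks from 326 to 2210. None of them was in the final set. X54 and X302 had a site with 1 mismatch, and the other 4 had sites with 2 mismatches. A site with 1 mismatch was therefore also found in members of middling signal. X94 and X259 lie 1188 bp apart near hlh-29, and their sequences share a run of 78 identical bases in opposite orientation, so they are not separate sequences. X148 lies 588 bp from X12, the smallest gap between 2 members with the motif.

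The genome holds more such sites than the list of regions does, where a site counts as in a region if its centre is. Allowing 1 mismatch, the 12-letter motif occurs 32 times on X (1.81 per 1000000 bases) and 37 times on the autosomes (0.448 per 1000000 bases). Of the 32 sites on X, 16 lay in the 11 members named above, 2 lay in other regions of the pooled list and 14 in none. Of the 37 autosomal sites, 0 lay in any of the 20876 pooled regions, although 2 lay in a region of the replicate 1 list and 2 in one of the replicate 2 list. The share of each chromosome that the pooled regions cover was not computed. The count of 0 is therefore not read as fewer sites than that cover would give. The 2 other X regions were a promoter region of nspc-17 at chrX:14525695-14526034, with a signal of 57.25 and rank 40, and an intergenic region with a signal of 12.13 and rank 13433.

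All 3 exact 12-letter sites of the genome are on X, and all 3 had their centre in member X2 or X3, that at the edge of X3 included. By position, 11 of the 16 intergenic sites on X lay in members, as did 4 of 7 intronic sites and 1 of 4 exonic sites. In promoter windows of X, 1 of 5 sites lay in a pooled region and 0 in a member, a count that the rule for members largely sets. With 2 mismatches allowed the sites were about as frequent on X (16 per 1000000 bases) as on the autosomes (16.5), and 35 of 284 X sites, 28 of them in members, lay in the first 5000 regions, against 19 of 1362 autosomal sites.

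**Figure D3:**
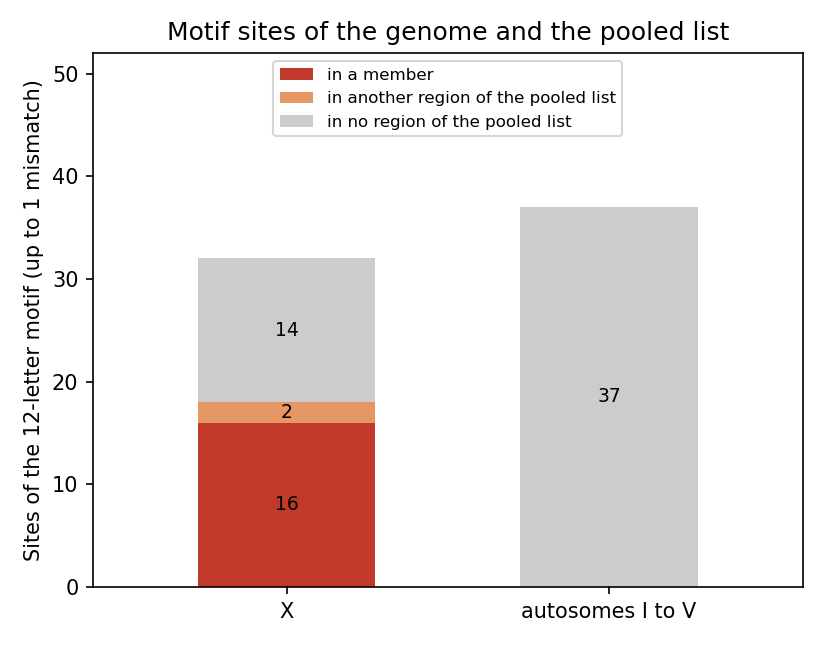
Number of sites of the 12-letter motif with up to 1 mismatch on X and on autosomes I to V, divided by whether they lie in a member, in another region of the pooled list or in none. Of 32 sites on X, 16 lie in members and 14 in no region, and all 37 autosomal sites lie in no region of the pooled list.

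The 8-letter words most enriched in the 50 strongest members were mostly pieces of the same sequence. The words, with strands joined, were ranked by their share in the 50 strongest members relative to the other 4950 regions of the first 5000. The first 5 were CTGCGCGA, CCCTGCGC, CCCTTCGC, CCTGCGCG and CGCAGGGA. CTGCGCGA was in 9 of the 50 strongest members and 11 of the other 4950 regions, and CGCAGGGA was in 11 and 17. These 2 words and 2 more are parts of the 12-letter motif read on either strand. CCCTTCGC, whose reverse is GCGAAGGG and which differs from the motif at 1 letter, was in 9 and 13, and all 9 holders were among the 16 strongest members, among them X1, X13 and X15, which lack the 12-letter motif. A word that is no part of the motif, TATCCACA, was in 8 of the 50 strongest members and 49 of the other 4950 regions. Its holders were X1, X3, X6, X9, X11, X13, X16 and X27, of which X1, X13, X16 and X27 lack the motif. This word was named after its values were seen.

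None of the other motifs searched was more frequent in members than in every other kind of region. The nuclear receptor half-site AGGTCA was in 53 of 655 members (8.09%, exact 95% interval 6.12 to 10.5), against 6.19% of X regions in promoters, 8.48% of autosomal regions outside promoters and 8.42% of autosomal regions in promoters. The E-box CACGTG, the element of many helix-loop-helix factors, was in 4.89% of members, against 5.88%, 6.65% and 5.69% of the other kinds in the same order. The repeat GAGAGAGA was in 2.44% of members, against 3.41%, 4.36% and 4.02%. The word CTGCGTCTC was in 1.07% of members, against 2.79%, 3.08% and 4.08%, so its share in members was the lowest of the 4 kinds. Its exact 95% interval in members (0.431 to 2.19) did not overlap those of the autosomal regions outside promoters (2.42 to 3.85) and in promoters (3.17 to 5.17). It did overlap that of the X regions in promoters (1.28 to 5.22). Over the first 5000 regions the share was 3.12%. All were searched on both strands.

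The pooled signals of the members ran from 15.68 to 169.9 with a median of 18.24. The median was close to those of the X regions in promoters (18.31), the autosomal regions outside promoters (17.9) and the autosomal regions in promoters (18.22). The highest signals of these kinds were 81.59, 73.56 and 127.6 in that order. Most members are thus of the same low signal as the rest of the list, and a small group stands far above it, as some autosomal promoter regions do. Around the limit of 5000, the last 3 members had signals of 15.7, 15.688 and 15.678 at ranks 4976, 4986 and 4999, and the first 3 X regions left out had 15.678, 15.673 and 15.671 at ranks 5002, 5009 and 5011. There is no gap in the signal at that limit.

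**Figure D4:**
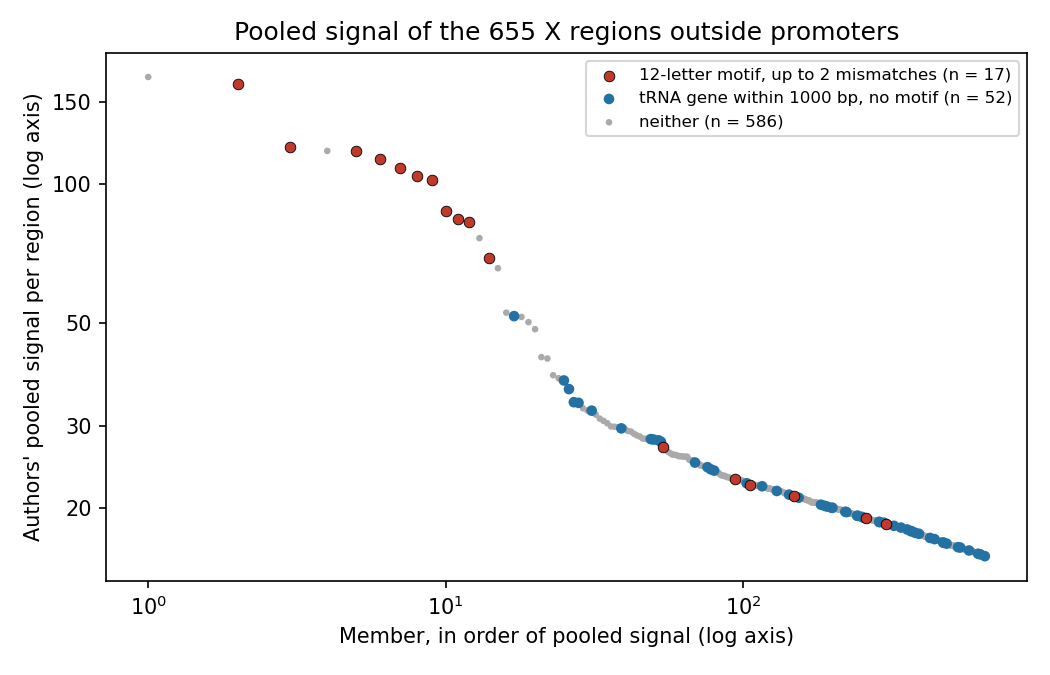
Authors' pooled signal of each of the 655 members (vertical log axis) in order of signal (horizontal log axis). Members with the 12-letter motif (n = 17), members with a tRNA gene within 1000 bp and no motif (n = 52) and the remaining 586 are coloured apart. The signal drops from 169.9 to below 30 within the first 50 members, and 11 of the 17 motif holders stand among the first 14.

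Only a small share of the members passed the authors' own limits. The final set, which the authors kept by the irreproducible discovery rate (IDR), holds 162 regions, which is 0.776% of the pooled list and 3.24% of the first 5000. It includes 28 members (4.27%, exact 95% interval 2.86 to 6.12), against 7 X regions in promoters (2.17%), 44 autosomal regions outside promoters (1.83%) and 83 autosomal regions in promoters (5.14%). X403, at chrX:16682177-16682516 with a signal of 17.4, also overlaps a final region, that of X9, so that 29 members overlap the final set by at least 1 bp. The deposited q value was at most 0.05 in 53 members (8.09%), against 6.12% of the first 5000, and its median over the members was 0.5498. The members outside the final set had signals of up to 32.77. Since the rule used the pooled signal, which also orders the final set, nothing is read from these shares.

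Of the 28 final members, 11 held the 12-letter motif (39.3%, exact 95% interval 21.5 to 59.4), against 2 of 7 final X regions in promoters, 0 of 44 final autosomal regions outside promoters and 5 of 83 final autosomal regions in promoters. A further 5 final members had a tRNA gene within 1000 bp of the summit and no motif, and 12 had neither. The GC content of the final members was a median of 37.35%, against 32.94% in the members outside the final set.

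The strongest members lay between genes or in introns, mostly far from a TSS. X1 (chrX:9465672-9466011) was intergenic, with its summit 2497 bp downstream of the TSS of ZK899.6. It had a pooled signal of 169.9, with signals of 49.07 in replicate 1 and 121.4 in replicate 2, where it ranked 15 and 1. X2 (chrX:11094017-11094356) was intergenic, 3999 bp downstream of the TSS of W02H3.3, with a pooled signal of 163.7 and signals of 66.16 in replicate 1 and 99.72 in replicate 2. It ranked 13 in replicate 1 and 2 in replicate 2, so both replicates had these members near the top.

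X3 (chrX:2996965-2997304) lay in an intron of Y41G9A.17 and had a pooled signal of 120.2, with ranks of 20 and 7 in replicates 1 and 2. X4 (chrX:12363055-12363394) was intergenic near F19H6.5 and had a signal of 117.7 and ranks of 23 and 5. X5 (chrX:806503-806842) was intergenic near gtr-1 and had the same signal to 4 digits, with ranks of 16 and 10. X8 (chrX:6296355-6296694) lay in an intron of mom-1, a Porcupine-like gene needed for Wnt secretion, and had a signal of 103.8 and ranks of 28 and 9. X7, X9, X10, X11, X12 and X13 were intergenic with signals from 108.2 to 76.3, and their nearest TSSs were those of F55G7.5, F22H10.2, fbxb-58, T27A8.7, F20B6.9 and K02D3.1.

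X14 (chrX:5429392-5429731) was the only one of the 14 in an exon. It lay in a coding gene, pks-1, which encodes a large polyketide synthase, and had a signal of 69.27 with ranks of 46 and 26. Its summit was 15212 bp from the nearest protein-coding TSS, that of C41A3.2, more than any other member. X15 and X16 were intergenic near F43E12.1 and F56C3.1, with signals of 65.71 and 52.71. X18 lay in an intron of abts-4, an anion transporter gene, with a signal of 51.59. X17 and X19 lay in exons of non-coding RNA genes (M02F4.12 and R03E9.10), with signals of 51.8 and 50.27, and X20 was intergenic near T24D8.6, with 48.54.

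X17, X19 and X20 differed between the replicates. They ranked 3652, 489 and 2103 in replicate 1 and 34, 43 and 27 in replicate 2, whereas the other 17 of the 20 strongest members were within the first 46 of replicate 1 and the first 73 of replicate 2. Their pooled place therefore rests mainly on replicate 2.

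X6 lay upstream of xol-1, the X-linked master switch gene that sets sexual fate and the state of dosage compensation. X6 (chrX:8036231-8036570) had its summit 4912 bp upstream of the xol-1 TSS and 284 bp from a tRNA gene. Its pooled signal was 113.3, its replicate 1 signal 46.28 (rank 17) and its replicate 2 signal 71.96 (rank 8), and it held 2 motif sites with 1 mismatch. Within 25000 bp of xol-1 (chrX:8041313-8044409) there were 8 members, while a stretch of X of the same length held 1.96 on average. The pooled list held 16 regions there. Its mean was 11.9 in X windows of the slightly greater length used for nhr-28 below. Of the 8 members, X6 had the highest signal, and X133, X228, X251, X302, X321, X410 and X462 had signals from 21.68 down to 16.95. X302, on the other side of xol-1, also held a motif site with 1 mismatch. Of the 3 X-linked genes on a list of dosage compensation genes, xol-1 was the single gene with a member nearest to it or inside it (33.3%). Over all protein-coding genes on X that share was 21.3%. The xol-1 locus was chosen after its values were seen, so these counts are a description.

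No member lay at nhr-28 itself, which is on X (chrX:16354976-16359650). Within 25000 bp of the gene there was no region of the pooled list, against a mean of 11.9 in X windows of that length. The replicate lists held 2 regions each there, against means of 17.2 and 17.1. The nearest pooled summit was 27244 bp away on the upstream side and 36171 bp away on the downstream side. The strain carries a transgene that makes NHR-28, and the cause of this gap was not tested. The lack of regions is therefore not read as a lack of binding.

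By position, 282 members were intergenic (43.1%, exact 95% interval 39.2 to 46.9), 221 were in introns (33.7%, 30.1 to 37.5) and 152 were in exons (23.2%, 20 to 26.6). The autosomal regions outside promoters were 36% intergenic, 37.9% intronic and 26.1% exonic. Since the 2 intergenic intervals do not overlap (39.2 to 46.9 for members, 34.1 to 37.9 for autosomes), the members were more often between genes, as a count of regions and with no regard to how much of each chromosome is intergenic. In more detail, 70 members were in coding sequence, 38 in an untranslated exon of a protein-coding gene, 44 in an exon of a non-coding gene or pseudogene and 218 in an intron of a protein-coding gene.

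The distance from the summit to the nearest protein-coding TSS was a median of 2056 bp in members and 1954 bp in autosomal regions outside promoters. It was over 2000 bp in 334 members (51%) and over 5000 bp in 82 (12.5%), against 48.4% and 11.8% of those autosomal regions. The GC content was a median of 33.24% in both kinds. Bases marked as repeats in the RefSeq sequence made up most of the region in 115 members (17.6%, exact 95% interval 14.7 to 20.7), against 10.5% of X regions in promoters, 29.5% of autosomal regions outside promoters and 24.6% of autosomal regions in promoters. Over the first 5000 regions the share was 25.1%. Members were thus less often repeat-rich than autosomal regions outside promoters, and X regions in promoters were so less often still. This is a count of regions, with no regard to how much of each chromosome is marked as repeats.

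Members were often near tRNA genes. The summit lay within 1000 bp of a tRNA gene in 53 members (8.09%, exact 95% interval 6.12 to 10.5), against 17 X regions in promoters (5.26%, 3.1 to 8.29), 30 autosomal regions outside promoters (1.25%, 0.843 to 1.78) and 22 autosomal regions in promoters (1.36%, 0.855 to 2.05). The share over the first 5000 was 2.44%. X carries 276 of the 634 annotated tRNA genes, so tRNA genes are dense on X. In 40 of the 53 members the summit was within 170 bp of the tRNA gene, and in 20 it was inside it.

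The strongest members near tRNA genes were X6, X17, X25, X26 and X27. X25 (chrX:12458039-12458378) and X26 (chrX:16209664-16210003) had their summits inside tRNA genes and signals of 37.63 and 36.05, and X17 had its summit 26 bp from one. X27 (chrX:15200697-15201036), also inside a tRNA gene, had a signal of 33.78, with rank 10337 in replicate 1 and rank 87 in replicate 2. The 52 members near a tRNA gene and without the motif had a median signal of 19.58, against 84.12 for the 17 members with the motif and 18.06 for the 586 with neither. X6 was the only member that had both features.

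Other small RNA genes were within 1000 bp of 9 members (1.37%), against 2 X regions in promoters (0.619%), 82 autosomal regions outside promoters (3.41%) and 3.32% of the first 5000. X11, 775 bp from T27A8.8, was the strongest of them. X73, X186 and X197 lay in F09A5.3 near microRNA genes of the mir-54 to mir-56 cluster, with signals of 24.6, 20.2 and 20. X138 lay 436 bp from mir-793, with a signal of 21.5. Of these, X73 and X138 had no region in replicate 1 and X197 had none in replicate 2, so their support came from a single replicate.

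Protein-coding genes hosted 339 members, in 290 genes, and 38 genes hosted 2 or more. daf-12, which encodes the nuclear receptor that binds dafachronic acid and controls dauer entry and larval timing, hosted the most, with 5 members in introns over its 30968 bp. Their signals were 22.4 (X107), 21.6 (X137), 19.7 (X219), 19.5 (X231) and 19.3 (X239), and none was in the final set. X137 had no region in replicate 1 and X231 none in replicate 2, so 3 of the 5 had a region in both. A further 10 genes hosted 3 members each, among them the heterochronic gene lin-14, the homeobox gene ceh-37, the insulin receptor substrate gene ist-1 and nhr-40. Many of these genes are long, and length was not taken into account.

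Members were nearest to, or inside, 582 of the 2731 protein-coding genes on X (21.3%). Among gene groups, 11 of 23 nuclear hormone receptor genes with an nhr name had a member (47.8%), as did 10 of 34 neuropeptide genes (29.4%), 5 of 15 ion channel genes (33.3%), 5 of 27 collagen genes (18.5%) and 2 of 19 homeobox genes (10.5%). These counts carry no test and do not account for the length of the genes. The strongest members at nuclear receptor genes were X24 in an intron of nhr-14 (signal 38, in the final set), X44 in an intron of nhr-40 (28.6) and X79 near nhr-3 (24.1). X44 had no region in replicate 1 and ranked 82 in replicate 2. Each of the other 8 receptor genes had its strongest member at a signal of 22.6 or lower.

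Along X, members were spread over the whole chromosome, at 37 per 1000000 bases. The intervals of 1000000 bp with the most members were 11000001 to 12000000, with 49, and 6000001 to 7000000, with 48, followed by 3 intervals with 42 each. The intervals with the fewest were 1 to 1000000, with 25, 9000001 to 10000000, with 26, and 1000001 to 2000000, with 27. The 17 members with the motif were in 11 of the 18 intervals, with at most 3 in any of them. The median gap between neighbouring members was 17285 bp and the largest 265882 bp.

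Some members overlap each other and are not separate observations. Of 654 gaps between neighbouring summits, 36 were under 1000 bp and 10 were shorter than the width of a region. The closest pair was X34 and X68, 200 bp apart in the non-coding gene C30E1.9, followed by X81 and X366 (206 bp), and by X70 and X619 and X9 and X403 (207 bp each). Overlapping members can share a replicate region, as X9 and X403 did.

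A region of the replicate 1 list overlapped 469 members (71.6%), and a region of the replicate 2 list overlapped 619 (94.5%). Both lists covered 435 members (66.4%, exact 95% interval 62.7 to 70.0), against 67.2% of X regions in promoters, 63.3% of autosomal regions outside promoters and 65.7% of the first 5000. The share was near that of the whole list. Replicate 1 had no region at 186 members, the strongest being X37, X43, X44, X73 and X87, and replicate 2 had none at 36, the strongest being X97, X197, X225, X226 and X231. X37, near dpy-3, ranked 96 in replicate 2, and X97, near ZC53.1, ranked 73 in replicate 1.

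The order of the members in the 2 replicates is given as a description. The pooled signal draws on both replicates, and most groups below are cuts on it. Over the 435 members with a region in both replicates, Spearman's rho of the replicate signals was 0.03 and Pearson's r on the log2 scale 0.46. Over the 28 final members rho was 0.72 and r 0.61, and over the 407 others rho was -0.15 and r -0.07. Within the signal order, rho was 0.65 over the 14 strongest members, and it was -0.15 over the 33 of X15 to X50 with a region in both replicates. Over the 16 members with the motif and a region in both replicates rho was 0.84 and r 0.91, and over the 419 without it rho was -0.04 and r 0.22. The points are regions of the same 2 libraries, they were selected on the pooled signal, and overlapping members share replicate regions. Pooled signals ran from 15.68 to 32.77 in members outside the final set and from 18.49 to 163.7 in motif holders. Groups of such unlike range cannot be compared by rho, and how far a narrow range lowers it was not tested.

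**Figure D5:**
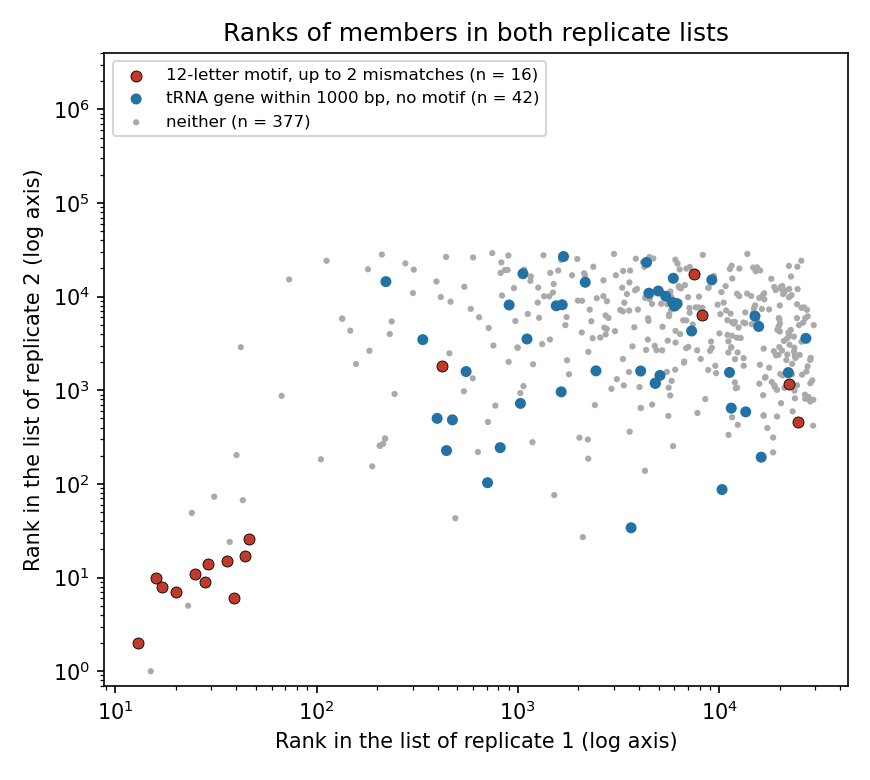
Rank of the 435 members with a region in both replicates in the list of replicate 1 (horizontal log axis) and of replicate 2 (vertical log axis), where 1 is the strongest of 30000 regions. Members with the motif (n = 16), near a tRNA gene without the motif (n = 42) and the remaining 377 are coloured apart. Of the motif members, 11 are within the first 46 of replicate 1 and the first 26 of replicate 2, and the other points form a broad cloud.

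Each replicate list, ranked by its own signal and put through the same position rule, also had the motif at its top. Among the 20 strongest X regions outside promoters, 10 held the 12-letter motif with up to 2 mismatches in replicate 1 (50%, exact 95% interval 27.2 to 72.8) and 11 in replicate 2 (55%, 31.5 to 76.9). Among the 50 strongest there were 11 and 12. Over the regions that the rule kept, there were 18 of 660 in replicate 1 (2.73%) and 17 of 655 in replicate 2 (2.6%). The replicates differed by 1 region at each of these list lengths. The pooled list was called on the pooled reads of both replicates, so the replicate lists are not independent of it.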

How the data were processed

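ChIP-seq regions of 2 biological replicates were used as the authors deposited them, in build ce11. Per the deposited file list, the authors called regions plus background against a control, for each replicate and for the pooled reads, and derived the final set with IDR. No source used here names the aligner, the caller or the IDR threshold. The deposited signal of each region has no stated scale and was used only within a list, and q values come from the −log10 values that the authors deposited. The lists hold no read counts, so the depth is unknown.

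Regions were ranked and annotated with Ensembl release 115 for WBcel235. The smallest overlap was 1 bp. Motifs were searched on both strands of the whole region. No test over samples was possible, so shares carry exact Clopper-Pearson 95% intervals. The scripts were tested on simulated data.

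The members, gene lists, motifs and the rule for named regions were chosen with earlier results of these data known. Named were the 20 strongest members, up to 5 per class, the 5 genes that hosted most members, the closest pairs and the intervals with most and fewest members. Regions outside this rule, among them the weaker motif holders and those near xol-1, were chosen after their values were seen. Alternatives were other promoter windows, list lengths, overlaps, mismatches and each replicate left out. Python 3.11.15, pandas 2.3.3 and scipy 1.17.1 were used.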

Additional observations from a re-analysis of the deposited data

How the results depend on the processing

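The alternatives covered 11 values of the members and not the comparisons between kinds of region. Of the 73 recomputed values, 55 moved by less than the limits set. Those limits were the exact 95% interval for shares, the order-statistic 95% interval for medians, a factor of 1.5 for counts and 0.1 for rho. The replicate rho over members, 0.03, was -0.01 with a promoter window of 500 bp before to 200 bp after the TSS and at most 0.11 elsewhere. The median TSS distance was 1704 bp with that window and 2732 bp with one of 2000 to 1000 bp, which follows from the rule. With the first 2500 regions there were 346 members, of which 75.4% had a region in both replicates, 10.7% lay near a tRNA gene and 4.91% held the 12-letter motif, and the median GC was 34.4%. With the first 10000 there were 1324 members, with 53.2% in both replicates and 6.12% near a tRNA gene. One mismatch in the core raised its share to 3.97%, and 3 in the 12-letter motif raised that share to 7.33%. An overlap of at least 50% of the member left 59.8% in both replicates. With protein-coding genes only, 48.2% of members were intergenic.

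With 1 replicate left out and the other list used alone, the intergenic share was 44.9% to 47.1%, the intron share 29.2% to 32.2%, the tRNA share 5.61% to 7.63% and the median GC 32.6% to 34.3%. The member count was 655 to 660, and the share with the 12-letter motif 2.6% to 2.73%. The cause of these moves was not tested. The share of X among the first 5000 regions was 19.6% in ce11 and 19.4% in the ce10 list, for which no other value was computed. No paired analysis was possible because the series has 1 group. Depth limits are unknown, since the files hold no read counts. Most members have high q values (median 0.5498), so they include background by construction.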
